A study of Mus musculus with 6 samples.

Results

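The genes described here encode the enzymes that remove superoxide and peroxides and keep protein thiols reduced: superoxide dismutases, catalase, glutathione peroxidases, peroxiredoxins, the thioredoxin system, the enzymes that make and reduce glutathione, glutathione S-transferases, heme oxygenase 1 and the quinone reductase Nqo1. They were taken by symbol from a table of 19940 genes, and 49 genes of the table met that rule. RNA had been sequenced from hand-picked pancreatic islets of C57BL6/J mice, with 3 samples from mice at gestational day 14.5 of pregnancy and 3 from nonpregnant mice labelled as littermates. No further genotype or treatment is given in the labels, nor is an age, while 5 animals per group are named in the design text. The labels do not say whether a sample is 1 animal. The C57BL/6J strain is known for a deletion of several exons in Nnt, which encodes a mitochondrial enzyme that makes NADPH for glutathione and thioredoxin reduction. The table has 1 value for each whole gene, so whether these animals carry the deletion was not tested. The table holds 1 mean read count per gene and group and the result of the authors' own test. No spread between libraries can therefore be given, and a gene is said to have risen or fallen where the authors' deposited table gives it an adjusted p under 0.05.

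Superoxide leaving the respiratory chain is turned into hydrogen peroxide by superoxide dismutases, and the peroxide is then reduced by catalase, by glutathione peroxidases or by peroxiredoxins. Glutathione peroxidases draw electrons from glutathione, which glutathione reductase regenerates, whereas most peroxiredoxins draw them from thioredoxin, which thioredoxin reductases regenerate. Both reductases use NADPH. Beta cells are known for low levels of catalase and glutathione peroxidase 1 relative to liver, and for strong control of Txnip, an inhibitor of thioredoxin, by glucose.

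In islets of pregnant mice 12 of the 49 genes rose and 2 fell, and 35 did not pass. Txnrd2, the mitochondrial thioredoxin reductase, showed the largest rise, at 3.06-fold per the authors' deposited table. The other 11 genes that rose were Prdx4, Txn1, Prdx3, Gsr, Gpx4, Gsto1, Gpx1, Sod1, Gstt2, Prdx1 and Gstm4, with fold changes between 1.28 and 1.53 per the authors' deposited table. Gstm1, a glutathione S-transferase, fell to 0.57 and Txnip to 0.78 of the nonpregnant level per the authors' deposited table. Prdx1, Sod1, Txn1 and Gstm1 have annotated pseudogenes close to their coding sequence, so their values are less certain. The 12 rises are 24.5% of the genes described, against 7.57% of all 19940 genes that rose in the same comparison. The 2 falls are 4.08%, against 4.15% of all genes. Among genes with at least 1000 mean reads over both groups, 10 of 26 members rose (38.5%) and 2 fell, against 9.8% of 8796 genes that rose and 6.43% that fell.

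**Figure D1:**
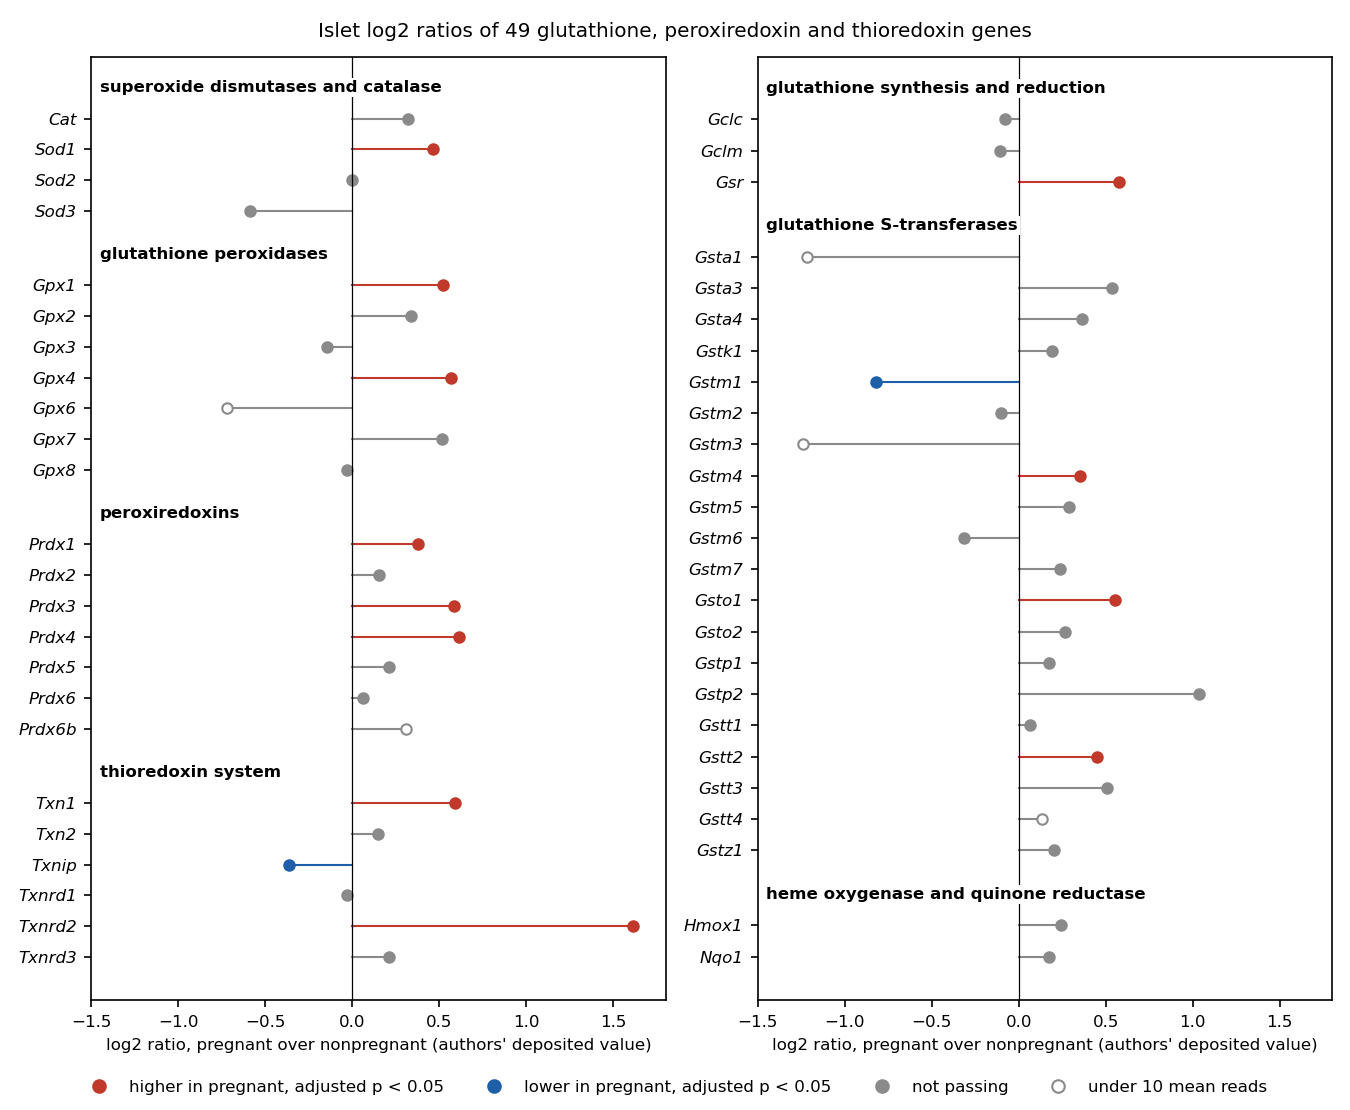
Log2 ratio of pregnant over nonpregnant islets for all 49 genes, 1 point per gene, grouped by role. Red points rose and blue points fell by the authors' adjusted p under 0.05, grey points did not pass, and open points had under 10 mean reads. Txnrd2 stands at 1.61 and Gstm1 at -0.82, while the other passing genes lie between -0.36 and 0.61.

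Most members leaned upwards by a small amount. Of the 44 members with a mean of at least 10 reads, 33 had a positive log2 ratio, 10 a negative one and 1 a ratio of 0 per the authors' deposited table. Their median log2 ratio was 0.24, against -0.01 over all 15682 genes with as many reads, of which 47.8% were positive. With each gene taken as a share of its group's mean reads these medians were 0.15 and -0.10. The summed reads of the 49 genes did not follow this: they took 0.257% of all mean reads in pregnant islets and 0.26% in nonpregnant islets. Gpx3 and Txnip, which hold the most reads among the members, were at ratios below 1.

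**Figure D2:**
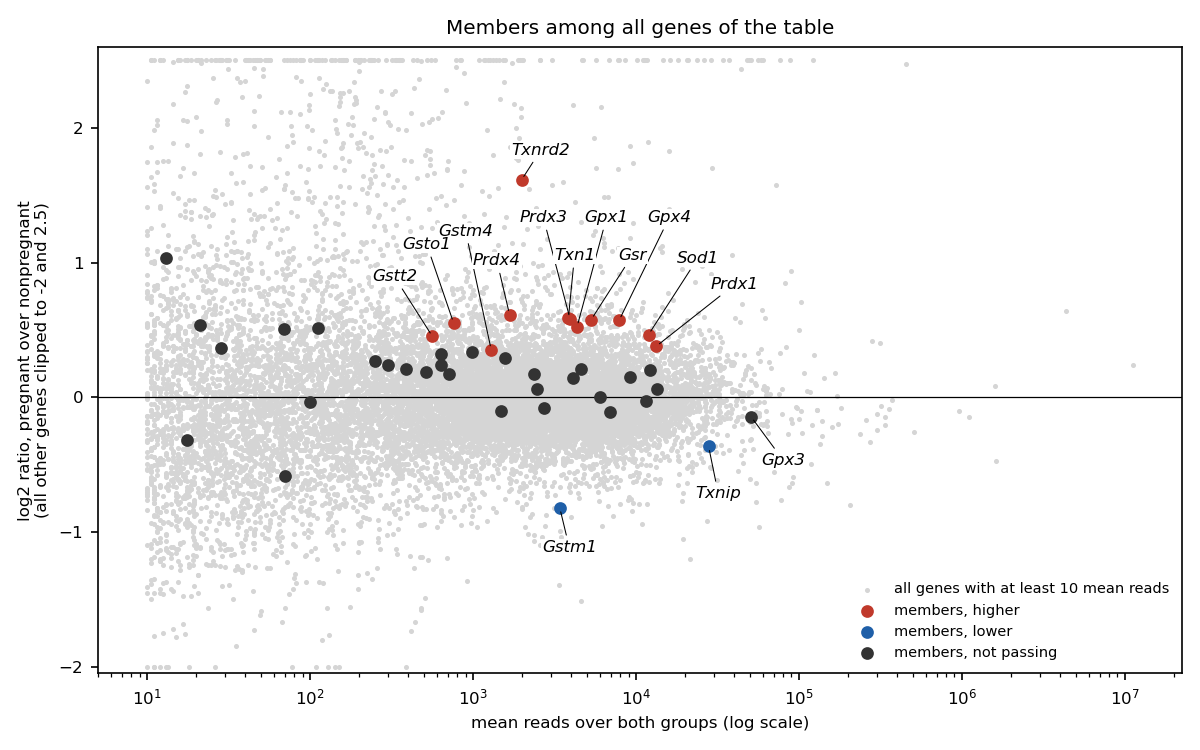
Log2 ratio of pregnant over nonpregnant islets against mean reads over both groups (log scale), with members as large points over all genes with at least 10 mean reads. The passing members lie between 564 and 27905 mean reads, and Txnrd2 stands above the band of other members.

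The authors' mean reads summed to 87654449 over all genes in pregnant islets and 84493872 in nonpregnant islets. Markers of other cell types moved in the same comparison. The 23 measured acinar markers, of the enzyme-secreting cells around islets, took 1.72% of mean reads in pregnant and 0.137% in nonpregnant islets, and 22 of them rose. The 9 beta cell markers, led by the insulin genes, accounted for 20.3% in pregnant and 17.1% in nonpregnant islets (2 rose, 1 fell). The 6 alpha cell markers, led by the glucagon gene, took 1.62% in pregnant and 2.41% in nonpregnant islets (3 fell). Macrophage markers took 0.0122% in pregnant and 0.00856% in nonpregnant islets (1 of 8 rose), and red blood cell markers 0.00107% in pregnant and 0.000413% in nonpregnant islets (1 of 7 rose). The macrophage difference lay mostly in C1qa, with 6370 reads in pregnant and 3195 in nonpregnant islets, which did not pass. The other macrophage markers were at ratios between 0.91 and 1.32 per the authors' deposited table. Ductal markers took 0.0279% in pregnant and 0.0245% in nonpregnant islets (2 of 8 rose), and endothelial markers 0.0431% in pregnant and 0.0459% in nonpregnant islets (0 of 7 passed). The ductal difference lay mostly in Tff2, with 2390 reads in pregnant and 157 in nonpregnant islets. Besides Tff2 only Muc1 rose, and 6 ductal markers did not pass. Delta and PP cell markers took 0.632% in pregnant and 0.765% in nonpregnant islets (1 of 3 fell), and stellate or fibroblast markers 0.00355% in pregnant and 0.0043% in nonpregnant islets (0 of 7 passed). Every marker list had reads in both groups, and none of its measured genes was at 0 in both. The part of these shifts in the values below was not tested. In whole islets fewer cells of a type and less RNA per cell cannot be told apart.

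Of the 4 genes of superoxide dismutases and catalase, Sod1 rose (25%) and 0 fell, against 7.57% and 4.15% of all genes. The other 3 genes did not pass. Sod1, the copper and zinc enzyme of the cytosol, had an authors' mean of 13705 reads in pregnant and 10184 in nonpregnant islets. It rose 1.38-fold per the authors' deposited table (adjusted p = 0.000185). Sod2, the manganese enzyme of the mitochondrial matrix, had 5942 reads in pregnant and 6088 in nonpregnant islets, and the authors' deposited table gave a ratio of 1 (adjusted p = 1). The extracellular enzyme gene Sod3 had 55 reads in pregnant and 85 in nonpregnant islets, a ratio of 0.67 that did not pass per the authors' deposited table (adjusted p = 0.252). Cat, which encodes catalase, had 701 reads in pregnant and 576 in nonpregnant islets. Its ratio of 1.25 did not pass after adjustment per the authors' deposited table (p = 0.023, adjusted p = 0.132). Levels can be compared between genes as RPKM, here the mean reads per kilobase of exon and per 1000000 mean reads. On this scale Cat was at 3.06 in pregnant and 2.61 in nonpregnant islets, while Sod1 was at 39.4 in pregnant and 30.4 in nonpregnant islets.

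Gpx1 and Gpx4 rose among the 7 glutathione peroxidase genes (28.6%, against 7.57% of all genes), and 0 fell (against 4.15%). Gpx1, the cytosolic and mitochondrial enzyme that reduces hydrogen peroxide, had an authors' mean of 5076 reads in pregnant and 3624 in nonpregnant islets. The rise was 1.44-fold per the authors' deposited table (adjusted p = 0.00311). Gpx4, which reduces lipid peroxides in membranes and protects cells from ferroptosis, had 9313 reads in pregnant and 6439 in nonpregnant islets. It rose 1.48-fold per the authors' deposited table (adjusted p = 0.000128).

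Gpx3, the secreted plasma form, had the highest level of all 49 genes, at 299.9 RPKM in pregnant and 353 in nonpregnant islets. Its authors' means were 47661 reads in pregnant and 54117 in nonpregnant islets, a ratio of 0.9 that did not pass per the authors' deposited table (p = 0.462, adjusted p = 0.817). Gpx2, a gastrointestinal form, and Gpx7, a peroxidase of the endoplasmic reticulum (ER), stood at 1.26 and 1.43 and missed the threshold per the authors' deposited table (adjusted p = 0.0674 and 0.209). Gpx8, the other ER form, was at 0.98 per the authors' deposited table. Gpx6 was listed at 0 reads in pregnant islets and 1 in nonpregnant islets.

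Glutathione peroxidases 1 to 4 and the 3 thioredoxin reductases carry selenocysteine, which the ribosome inserts at an in-frame TGA codon that is otherwise a stop. The annotation marked such a codon in 7 of the 49 genes, of which 3 rose (Gpx1, Gpx4 and Txnrd2) and 0 fell. Over all genes 7.57% rose and 4.15% fell, and over the 49 members 24.5% rose and 4.08% fell. No test was run on this small group. Their coding sequences around it, from GENCODE M21 on GRCm38, are shown because the catalytic residue sits there, with the selenocysteine codon in capitals.
Gpx1: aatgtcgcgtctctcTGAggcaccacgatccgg
Gpx2: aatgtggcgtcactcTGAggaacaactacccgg
Gpx3: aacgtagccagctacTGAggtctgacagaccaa
Gpx4: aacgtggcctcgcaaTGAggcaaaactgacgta
Txnrd1: ctccagtctggctgcTGAggt
Txnrd2: actgtgactggttgcTGAggc
Txnrd3: actcagaaaggctgcTGAggc
In all 7 sequences the TGA is followed by a codon that starts with gg, which encodes glycine. In the 4 peroxidases the codon lies inside the protein, at codon 47 of 201 in Gpx1. In the 3 reductases it is preceded by a cysteine codon (tgc) and is the last codon but 1, at codon 526 of 527 in Txnrd2.

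Of the 7 peroxiredoxin genes 3 rose (42.9%) and 0 fell, against 7.57% and 4.15% of all genes. The 6 with at least 10 mean reads all had a positive log2 ratio per the authors' deposited table. Over all genes with as many reads 47.8% were positive. Of the 6, Prdx6 alone was below 0 (-0.03) as a share of mean reads. Prdx3, the peroxiredoxin of mitochondria, had an authors' mean of 4675 reads in pregnant and 3199 in nonpregnant islets and rose 1.5-fold per the authors' deposited table (adjusted p = 2.87e-06). Prdx4, which reduces peroxide in the ER and passes oxidizing equivalents to protein folding, had 2007 reads in pregnant and 1344 in nonpregnant islets. It rose 1.53-fold per the authors' deposited table (adjusted p = 6.62e-06). Prdx1, the abundant cytosolic form, had 14874 reads in pregnant and 11741 in nonpregnant islets and rose 1.3-fold per the authors' deposited table (adjusted p = 0.00406).

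The remaining peroxiredoxins did not pass. Prdx2, a second cytosolic form, had 9603 reads in pregnant and 8858 in nonpregnant islets, a ratio of 1.11 per the authors' deposited table (adjusted p = 0.435). Prdx5, found in several compartments, was at 1.16 with an adjusted p of 0.286 per the authors' deposited table. Prdx6, a cytosolic form that uses glutathione in place of thioredoxin, had 13537 reads in pregnant and 13288 in nonpregnant islets, a ratio of 1.04 per the authors' deposited table (adjusted p = 0.87). Prdx6b had 7 reads in pregnant and 5 in nonpregnant islets. Its coding sequence is 92.9% identical to that of Prdx6, so the split of reads between these genes is uncertain. Prdx2 shares exon bases with Junb and Rnaseh2a on the opposite strand (173 and 177 bases) and Prdx5 with Trmt112 (409 bases), which limits their values where counting ignored strand.

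Of the 6 genes of the thioredoxin system, Txn1 and Txnrd2 rose (33.3%) and Txnip fell (16.7%), against 7.57% and 4.15% of all genes. Txn1, the cytosolic thioredoxin, had an authors' mean of 4577 reads in pregnant and 3120 in nonpregnant islets and rose 1.5-fold per the authors' deposited table (adjusted p = 2.33e-06). Its reductase gene Txnrd1 had 11270 reads in pregnant and 11781 in nonpregnant islets, a ratio of 0.98 per the authors' deposited table (adjusted p = 0.98). In mitochondria it was the reductase gene that passed. Txn2, the mitochondrial thioredoxin, had 4291 reads in pregnant and 3977 in nonpregnant islets, a ratio of 1.11 per the authors' deposited table (adjusted p = 0.494). Txnrd2 had 2973 reads in pregnant and 997 in nonpregnant islets, the 3.06-fold rise named above (adjusted p = 1.63e-35 per the authors' deposited table). Whether the genes of a compartment differed from each other in their change was not tested.

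Txnrd2 (ENSMUSG00000075704) lies on the plus strand of chromosome 16 at 18426384 to 18479073 of GRCm38. Its p was the one at rank 39 among all 19940 genes, counted from the smallest per the authors' deposited table. Its level was 7.71 RPKM in pregnant and 2.68 in nonpregnant islets, while Txnrd1 was at 18.1 RPKM in pregnant and 19.7 in nonpregnant islets. The sources used here do not state whether counting used strand, and this value carries the same limit as those of Prdx2 and Prdx5. Txnrd3, which joins a glutaredoxin domain to a thioredoxin reductase, had 412 reads in pregnant and 364 in nonpregnant islets, a ratio of 1.16 per the authors' deposited table (adjusted p = 0.507).

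Txnip binds thioredoxin and inhibits it, and in beta cells it is induced by glucose. Its authors' mean was 24043 reads in pregnant and 31767 in nonpregnant islets, and it fell to 0.78 per the authors' deposited table (adjusted p = 0.00482). After Gpx3 it had the second highest level of the members, at 87.8 RPKM in pregnant and 120 in nonpregnant islets. Txnip (ENSMUSG00000038393) lies on the plus strand of chromosome 3 at 96557957 to 96561883. The antisense gene Gm15441 covers 606 of its 3123 exon bases (19.4%), so its value carries the same limit on strand. Arrdc4, a related arrestin gene that is likewise induced by glucose and was named after its value was seen, had 1267 reads in pregnant and 1522 in nonpregnant islets, a ratio of 0.85 that did not pass per the authors' deposited table (adjusted p = 0.345).

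**Figure D3:**
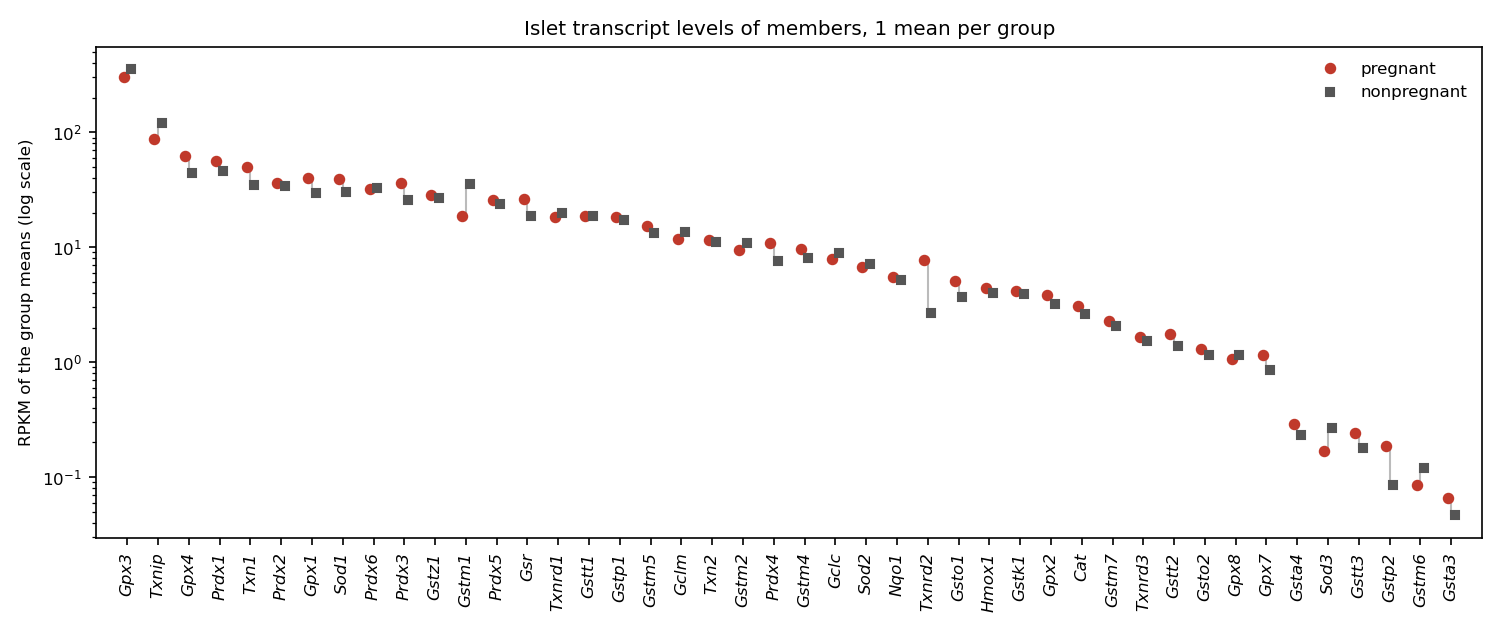
Levels of the 44 members with at least 10 mean reads, in RPKM of the group means (log scale), with 1 mean for pregnant (circles) and 1 for nonpregnant islets (squares). Gpx3 and Txnip lead in both groups, and the vertical gap is widest among the well expressed genes for Txnrd2 and Gstm1.

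Glutathione is made by glutamate-cysteine ligase, whose catalytic and modifier subunits are encoded by Gclc and Gclm, and oxidized glutathione is reduced by Gsr. Only Gsr passed among these 3 genes (33.3% higher and 0 lower, against 7.57% and 4.15% of all genes). Its authors' mean was 6297 reads in pregnant and 4325 in nonpregnant islets, a 1.49-fold rise per the authors' deposited table (adjusted p = 2.3e-06). Gclc had 2621 reads in pregnant and 2841 in nonpregnant islets, a ratio of 0.95 per the authors' deposited table (adjusted p = 0.82). Gclm had 6557 reads in pregnant and 7233 in nonpregnant islets, a ratio of 0.93 per the authors' deposited table (adjusted p = 0.678). On the opposite strand Gm17494 covers 296 of the 6291 exon bases of Gclm, so the same limit on strand holds there.

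Glutathione S-transferases, which join glutathione to electrophiles, were the largest family, with 3 of 20 genes higher, 1 lower and 16 not passing. These shares of 15% higher and 5% lower stand against 7.57% and 4.15% of all genes. Gstm1 (ENSMUSG00000058135), the mu class member with the most reads, had an authors' mean of 2424 reads in pregnant and 4389 in nonpregnant islets. It fell to 0.57 per the authors' deposited table (adjusted p = 5.88e-12). Gstm4 had 1434 reads in pregnant and 1152 in nonpregnant islets and rose 1.28-fold per the authors' deposited table (adjusted p = 0.0363).

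The 7 mu class genes stand in a row on chromosome 3 of GRCm38, from Gstm5 at 107895821 through Gstm7, Gstm6, Gstm3, Gstm2 and Gstm1 to Gstm4, which ends at 108044894. Gstm1 (108012255 to 108017973) and Gstm4 (108040408 to 108044894), both on the minus strand, are neighbours with 22434 bases between them, and they are the only passing genes of the row, with opposite directions. Gstm2, on the other side of Gstm1, had 1406 reads in pregnant and 1545 in nonpregnant islets, a ratio of 0.93 per the authors' deposited table (adjusted p = 0.852). Gstm5 was at 1.22 and Gstm7 at 1.18 per the authors' deposited table (adjusted p = 0.0955 and 0.498). The antisense gene 4933431E20Rik covers 178 of the 1278 exon bases of Gstm5, so that value carries the same limit on strand. Gstm3 had 3 reads in pregnant and 9 in nonpregnant islets, and Gstm6 had 15 in pregnant and 20 in nonpregnant islets. The coding sequence of Gstm1 is 89.4% identical to that of Gstm3, 85.9% to Gstm2 and 80.7% to Gstm4, so reads could be split between these genes.

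Gsto1, an omega class enzyme that reduces dehydroascorbate, had 895 reads in pregnant and 625 in nonpregnant islets and rose 1.46-fold per the authors' deposited table (adjusted p = 0.00094). Its neighbour Gsto2 had 269 reads in pregnant and 229 in nonpregnant islets, a ratio of 1.2 per the authors' deposited table (adjusted p = 0.456). Gstt2 of the theta class had 644 reads in pregnant and 483 in nonpregnant islets and rose 1.37-fold per the authors' deposited table (adjusted p = 0.0204). The theta class genes Gstt1 and Gstt3 were at ratios of 1.04 and 1.42, which did not pass per the authors' deposited table (adjusted p = 0.891 and 0.358), and Gstt4 had 3 reads in each group.

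Gstz1, the enzyme that isomerizes maleylacetoacetate in tyrosine breakdown, held the most reads of the transferases, with 12810 in pregnant and 11420 in nonpregnant islets. Its ratio was 1.15 per the authors' deposited table (adjusted p = 0.369). Gstz1 shares 465 exon bases with Pomt2 and 156 with Gm6566 on the opposite strand, so its value carries the same limit on strand. Gstp1, the pi class enzyme, had 2488 reads in pregnant and 2260 in nonpregnant islets, a ratio of 1.13 per the authors' deposited table (adjusted p = 0.449). Gstp2 had 18 reads in pregnant and 8 in nonpregnant islets and is 98.1% identical to Gstp1 in its coding sequence. Gstk1, of the kappa class, was at 1.14 per the authors' deposited table (adjusted p = 0.574). The alpha class was scarce, with 25 and 32 reads for Gsta3 and Gsta4 in pregnant islets and 17 and 25 in nonpregnant islets, and Gsta1 was listed at 0 reads in pregnant and 1 in nonpregnant islets.

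Hmox1, which breaks down heme, and Nqo1, which reduces quinones, are textbook targets of the transcription factor NRF2, and neither passed. Hmox1 had an authors' mean of 683 reads in pregnant and 591 in nonpregnant islets, a ratio of 1.18 per the authors' deposited table (adjusted p = 0.578). Nqo1 had 746 reads in pregnant and 679 in nonpregnant islets, a ratio of 1.13 per the authors' deposited table (adjusted p = 0.65). Some other members are textbook NRF2 targets too, and those named here were mixed: Gsr, Prdx1 and Txn1 rose, Gstm1 fell, and Gclc, Gclm and Txnrd1 did not pass. They were picked without a fixed list, so this split depends on the choice.

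NRF2 binds the antioxidant response element, whose core was searched for as TGACNNNGC on both strands in RefSeq promoter windows of GRCm38.p6, from 250 bases before to 50 after an annotated start. A gene can have several starts, and 54 windows were matched for 41 of the 49 genes; Gclc, Gsr, Gsta4, Gstt2, Hmox1, Prdx6, Prdx6b and Sod3 had none. The core occurred in windows of 7 of the 41 genes (17.1%), against 14% of 27025 genes. Counted by window, 7 of the 54 held it (13%), against 12.4% of 32851 windows. Of the 7 genes, Prdx1 and Sod1 rose and Gclm, Gsta3, Gstm5, Gstm7 and Txnrd1 did not pass. Over the 49 members 24.5% rose and 4.08% fell, and over all genes 7.57% and 4.15%. Whether genes with the core differed from other members was not tested. The stretches around the match are shown for Prdx1 and Sod1 and for the NRF2 targets Gclm and Txnrd1 that did not pass. Each is on the plus strand with the match in capitals, and in all 4 the match reads the core on the opposite strand.
Prdx1, chr4:116685436-116685504: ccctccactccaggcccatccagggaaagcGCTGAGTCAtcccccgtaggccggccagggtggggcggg
Sod1, chr16:90220676-90220744: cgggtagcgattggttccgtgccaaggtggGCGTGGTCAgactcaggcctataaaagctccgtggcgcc
Gclm, chr3:122245393-122245461: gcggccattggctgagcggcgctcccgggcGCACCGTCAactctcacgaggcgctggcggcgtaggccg
Txnrd1, chr10:82859084-82859152: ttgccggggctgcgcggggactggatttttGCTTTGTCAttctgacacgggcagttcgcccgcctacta
The matches lie 133, 56, 134 and 92 bases before the start sites of Prdx1, Sod1, Gclm and Txnrd1. The start site used for Txnrd1 is an alternative one, 1 of 3 with a window, and it lies 25255 bases inside the start of the gene in GENCODE M21. Those of Prdx1, Sod1 and Gclm lie 55, 8 and 0 bases inside the start of the gene. A match of these letters is a description and not a bound site, and its absence from a window says nothing of sites elsewhere.

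Counts for 7 lists of genes around these enzymes are read against the 7.57% of all genes that rose and the 4.15% that fell. Among genes with at least 1000 mean reads, as many of the listed genes have, these shares were 9.8% and 6.43%. The list of NRF2 regulators and targets holds 0 of the 49 members. The NRF2 targets named above, both those that passed and those that did not, are therefore not counted in it. It had 1 of 26 genes higher and 1 lower (3.85% each), with a median log2 ratio of 0.02 among those with at least 10 reads. For these 26 genes neither share exceeded that of all genes. Nfe2l1, a factor related to NRF2 and the gene with the most reads of the list, had 36261 reads in pregnant and 31897 in nonpregnant islets, a ratio of 1.16 that did not pass per the authors' deposited table (adjusted p = 0.158). Nfe2l2, the gene of NRF2 itself, had 3289 reads in pregnant and 3556 in nonpregnant islets, a ratio of 0.95 per the authors' deposited table (adjusted p = 0.83). Sqstm1, an autophagy receptor that binds the NRF2 inhibitor KEAP1, had 32416 reads in pregnant and 25595 in nonpregnant islets and rose 1.3-fold per the authors' deposited table (adjusted p = 0.00357). Mafg, a small MAF partner of NRF2, had 7108 reads in pregnant and 9930 in nonpregnant islets and fell to 0.73 per the authors' deposited table (adjusted p = 0.0162).

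Of 22 genes of glutathione supply and breakdown, 4 rose (18.2%) and 0 fell (median log2 ratio 0.23). Cth, which makes cysteine from cystathionine, had 146 reads in pregnant and 29 in nonpregnant islets, a 5.08-fold rise per the authors' deposited table (adjusted p = 1.45e-06). Ggt1, which cleaves extracellular glutathione, had 348 reads in pregnant and 28 in nonpregnant islets, at 12.5-fold per the authors' deposited table (adjusted p = 0.0381). Hagh, the hydrolase that frees glutathione in methylglyoxal removal, rose 1.33-fold and Mgst3, a microsomal transferase, 1.57-fold per the authors' deposited table (adjusted p = 0.00186 and 0.032). Acinar markers took 1.72% of mean reads in pregnant and 0.137% in nonpregnant islets beside the rises of Cth and Ggt1, and their part was not tested. Slc3a2, the heavy chain of the cystine transporter, had the most reads of the list, with 19080 in pregnant and 18543 in nonpregnant islets and a ratio of 1.05 per the authors' deposited table (adjusted p = 0.811). Gss, glutathione synthetase, chosen after its value was seen, was at 1.23 without passing per the authors' deposited table (adjusted p = 0.0794).

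Genes that supply NADPH to the reductases included 4 higher (21.1%) and 1 lower (5.26%) of 19 (median log2 ratio 0.20). The mitochondrial genes Aldh1l2, of one-carbon metabolism, and Me3, a malic enzyme, rose 1.51-fold and 1.46-fold per the authors' deposited table (adjusted p = 0.0416 and 0.00252). H6pd, which makes NADPH in the ER, rose 1.35-fold per the authors' deposited table (adjusted p = 0.00102). Aldh1l1, the cytosolic counterpart of Aldh1l2, had 113 reads in pregnant and 31 in nonpregnant islets and rose 3.64-fold per the authors' deposited table (adjusted p = 3.04e-07). Rpia of the pentose phosphate pathway fell to 0.8 per the authors' deposited table (adjusted p = 0.0318). The entry enzyme of that pathway, G6pdx, named after its value was seen, had 2705 reads in pregnant and 2765 in nonpregnant islets, a ratio of 1 per the authors' deposited table. Nnt had 8758 reads in pregnant and 7891 in nonpregnant islets, a ratio of 1.14 per the authors' deposited table (adjusted p = 0.29), and this value over the whole gene does not separate the exons that the known deletion removes. Mthfd1, of cytosolic one-carbon metabolism, had the most reads of the list, with 11520 in pregnant and 12290 in nonpregnant islets and a ratio of 0.96 per the authors' deposited table (adjusted p = 0.885).

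**Figure D4:**
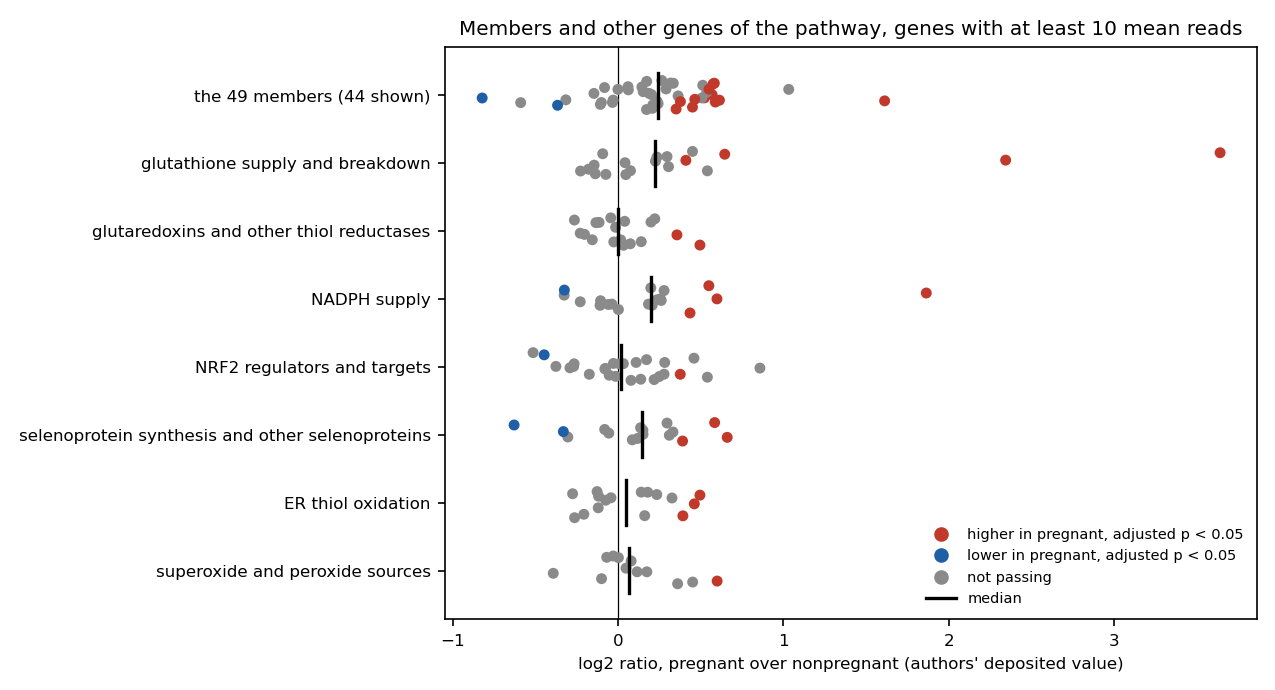
Log2 ratio of pregnant over nonpregnant islets for the members and for 7 lists of other genes of the pathway, 1 point per gene with at least 10 mean reads. Black bars are medians, 0.24 for the members and between 0.00 and 0.23 for the lists. Red and blue points rose and fell by the authors' adjusted p under 0.05.

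Other selenoproteins and the genes that make them gave 3 higher (18.8%) and 2 lower (12.5%) of 16 (median log2 ratio 0.14). Selm, a selenoprotein of the ER, had 8118 reads in pregnant and 5271 in nonpregnant islets and rose 1.58-fold per the authors' deposited table (adjusted p = 2.79e-05). The symbol Sepp1 stood on a pair of gene IDs, which the annotation names Selenop, the selenium carrier of plasma, and Selenof. The first had 73215 reads in pregnant and 50013 in nonpregnant islets and the second 26211 in pregnant and 20488 in nonpregnant islets, with rises of 1.5-fold and 1.31-fold per the authors' deposited table (adjusted p = 0.00608 and 0.0023). Sepsecs, the enzyme that completes selenocysteine on its tRNA, had 9284 reads in pregnant and 14701 in nonpregnant islets and fell to 0.65 per the authors' deposited table (adjusted p = 3.31e-05). Sepn1, a selenoprotein of the ER membrane, fell to 0.8 per the authors' deposited table (adjusted p = 0.0225).

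Thiol oxidation in the ER, where Prdx4 works, gave 3 higher (18.8%) and 0 lower of 16 genes (median log2 ratio 0.05). P4hb, protein disulfide isomerase, had 115813 reads in pregnant and 84078 in nonpregnant islets and rose 1.41-fold per the authors' deposited table (adjusted p = 2.73e-05). The sulfhydryl oxidase genes Qsox1 and Qsox2 rose 1.38-fold and 1.31-fold per the authors' deposited table (adjusted p = 0.000216 and 0.00279). Ero1lb, the oxidase of beta cell ER and the gene with the most reads in the list, had 212402 reads in pregnant and 262993 in nonpregnant islets, a ratio of 0.83 that did not pass per the authors' deposited table (adjusted p = 0.363). The list of glutaredoxins and other thiol reductases also counts the arrestin gene Arrdc4, Sesn1, Sesn2, Sesn3 and Txnl4a. It gave 2 higher (11.1%) and 0 lower of 18 (median log2 ratio 0.00). The 2 were the methionine sulfoxide reductases Msra and Msrb2, at 1.41-fold and 1.28-fold per the authors' deposited table (adjusted p = 0.00272 and 0.0368). The thioredoxin-like gene Txnl1 led this list with 11819 reads in pregnant and 12328 in nonpregnant islets, and next came Srxn1, which repairs overoxidized peroxiredoxins, with 5331 in pregnant and 5517 in nonpregnant islets. Their ratios were 0.98 and 0.99 per the authors' deposited table (adjusted p = 0.98 and 1). Of 18 sources of superoxide and peroxide 1 rose (5.56%, below the share of all genes) and 0 fell (median log2 ratio 0.06). Xdh, xanthine dehydrogenase, had 299 reads in pregnant and 201 in nonpregnant islets, a 1.52-fold rise per the authors' deposited table (adjusted p = 0.0293). Maob, a monoamine oxidase with the most reads of these genes, had 19812 in pregnant and 21758 in nonpregnant islets, a ratio of 0.93 per the authors' deposited table (adjusted p = 0.824).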

How the data were processed

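Islet RNA of 6 samples was sequenced. The submitters' processing notes name HTSeq 0.5.3p3, Bowtie, TopHat and TopHat2 2.0.12, with the build GRCm38. The deposited table gives each gene 1 mean read count per group, rounded to whole numbers and treated as a score rather than a count. The authors also deposited a linear fold change (ratio of pregnant over nonpregnant), its log2 value, a p-value and an adjusted p-value. Their test, the scaling of libraries and the use of strand are not given in the sources used here, so what spread the p-values measure is not known. No test was computed from the group means. The depth of single libraries is unknown, and no counting interval is given.

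The members and lists were chosen with earlier results of these data known. After 23 repeated lines were dropped, 19940 genes remained, and the deposited adjusted p-values were within 0.00203 of Benjamini-Hochberg values computed anew. All 49 members were matched by ID to GENCODE M21 for coordinates and exon lengths. Levels are RPKM computed from the group means (mean reads per exon kilobase and per 1000000 summed mean reads). Low genes were left out of medians under a mean of 10 reads, which removed 5 members; calls were counted over all members. Full values were set to be given for members that passed, the 10 with the highest level and 9 fixed genes. Of the lists, genes could be named if they passed or were among the 4 with the most reads; Arrdc4, G6pdx, Gss and Nfe2l2 fall outside this rule and were chosen after their values were seen. Coding sequences were compared by global alignment (Biopython 1.88). Calculations used Python 3.11.15, pandas 2.3.3 and numpy 2.4.6. The adjustment was tested on simulated p-values, the symbol rule on chosen gene symbols and the motif search on a constructed sequence. Some results are not reported here.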

Additional observations from a re-analysis of the deposited data

How the results depend on the processing

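At an adjusted p under 0.01 and under 0.1 in place of 0.05, 10 and 14 members were higher, and 2 were lower at each. Adjusting over genes with at least 10 mean reads gave 12 higher and 2 lower. The members' median log2 ratio of 0.24 was 0.15 as shares of all mean reads and 0.18 with acinar markers left out of the totals, where the median of all genes was -0.10 and -0.08. With other filters and pseudocounts it lay between 0.20 and 0.24. Gstt1, Prdx6 and Sod2, which did not pass, had log2 ratios between -0.09 and -0.00302 as shares. No paired analysis was possible because the table holds no column per library. For the same reason no sample could be left out in turn and no count model could be run.

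Each value rests on 1 mean per group, so 1 deviating library would not be seen. Prdx1 has 3 annotated pseudogenes with at least 90% identity over 80% of its coding sequence, and Gpx2, Gstm1, Gstm3, Gstp1, Gstp2, Prdx2, Sod1 and Txn1 have 1 each, which makes their reads uncertain.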

Other observations

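The p-values of members with like ratios differed. Gpx3, with a log2 ratio of -0.14 in the authors' deposited table and the most reads of the members, had p = 0.462, whereas Txn2, at 0.14 in the authors' deposited table with 4291 reads in pregnant and 3977 in nonpregnant islets, had p = 0.177. Prdx2, at 0.15 in the authors' deposited table, had p = 0.142. Values per library were not analysed here, so whether single libraries differed for Gpx3 was not tested.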
